A study of Mus musculus with 28 samples.

Results

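Axon-TRAP-RiboTag labels the ribosomes of retinal ganglion cells in the eye and recovers them from the superior colliculus (SC), the midbrain structure where the axons of these cells end. The description below concerns the last step of the time course, from P7.5, when surplus branches of the axon terminals are being removed, to the adult. Its members were the 4 libraries of the series' 28 that were made from Cre-positive SC at these stages, with 2 libraries a stage. A gene entered the comparison when its FPKM (fragments scaled to transcript length and to the mapped fragments of the library) was at least 1 in at least 2 of those 4 libraries. This left 1564 of the 23995 listed genes. In 190 of them both adult libraries lay above both P7.5 libraries, in 340 both lay below, and in 1034 the stages overlapped. The genes Actb, Gnb1 and Hsf2 also reached the minimum but had no numeric value in at least 1 SC library, so those 3 genes were left out.

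The Cre-positive mice, of C57BL/6 background, carried the RiboTag allele, in which Cre recombination adds a hemagglutinin (HA) tag to the ribosomal protein Rpl22, together with the Pax6-alpha-Cre transgene. That driver is active in the neural progenitors of the peripheral retina, so ganglion cells of the central retina are not covered, and all retinal neurons derived from these progenitors can carry the tag. The Cre-negative littermates also carried the RiboTag allele but lacked Cre. Their SCs, 2 libraries at P7.5 and 2 in the adult, went through the same HA immunoprecipitation and give the background of the method. Each SC library pooled the tissue of several animals (6 SCs by the study's methods), and the labels give no age for the adults. Whole eyes of Cre-positive animals, immunoprecipitated in the same way, gave 2 retina libraries a stage. A separate adult Cre-positive SC preparation, incubated without or with ribosome run-off in vitro and counted in reads, gave 1 library of each kind. Nothing in the labels says which libraries share a litter or a day, so the p-values below measure the spread between 2 pooled samples a group. For SC this spread was estimated jointly over 8 groups of libraries.

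In a mature axon, local translation is thought to serve the upkeep of the terminal: the supply of synaptic vesicle and channel proteins, mitochondria and survival factors. A growing axon instead needs cytoskeleton, guidance receptors and branching factors. The SC also contains resident neurons, astrocytes, oligodendrocytes and blood, whose mRNA can be carried along by an immunoprecipitation without being translated in an axon, and a bulk value cannot tell fewer tagged axons from less mRNA in each. For that reason the changes in Cre-positive SC are set beside those in Cre-negative SC.

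The libraries differed in depth along with stage. From the FPKM value of a single fragment, depth was estimated at 10500000 and 9910000 fragments for the P7.5 Cre-positive libraries and at 734000 and 1270000 for the adult ones. For a transcript of 2 kb, 3 fragments then correspond to 0.143 and 0.151 FPKM at P7.5 and to 2.04 and 1.18 FPKM in the adult. The Cre-negative libraries had the same gap, with 6360000 and 9740000 fragments at P7.5 and 509000 and 2110000 in the adult. The P7.5 replicate 1 libraries of the Cre-positive and Cre-negative groups stood apart. Their log2(FPKM + 1) values correlated at 0.908 across the 1564 genes, whereas the other 27 pairs among the 8 libraries lay between 0.433 and 0.703. The part that depth and this pair play in the changes below was not tested. Of the 19 ganglion cell markers, 10 were listed at 0 in all 4 Cre-positive libraries, and the summed FPKM of the list was 197 and 501 at P7.5 and 121 and 29.5 in the adult. In Cre-negative SC the sums were 213 and 604 at P7.5 and 610 and 0 in the adult, so their ranges overlapped with and without Cre at both stages. Most of the P7.5 sum came from Pou4f1.

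In Cre-positive SC, 5 of the 1564 genes rose from P7.5 to the adult at an adjusted p of 0.05 or less, which is 0.320% of those tested, and 0 fell (limma on log2(FPKM + 1), Benjamini-Hochberg). At an unadjusted p under 0.05 there were 47 higher (3.01%) and 45 lower genes (2.88%). The 5 genes are Mtag2, Serp2, Cdr1, Fam189a2 and Clk4. All 5 entered the comparison only through the adult libraries, since they were below 1 FPKM in both P7.5 libraries, and so had to differ between the stages to be tested. They were at 10 FPKM or more in both adult libraries, and below 1 FPKM in the 4 Cre-negative libraries. At the 2 earlier stages of the series, E17.5 and P0.5, the Cre-positive values of these genes did not exceed 0.183 FPKM, apart from 7.17 FPKM for Mtag2 in 1 E17.5 library.

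Mtag2 (ENSMUSG00000091510, mm10 chr7:45366163-45367948, plus strand) had the largest increase of all 1564 genes. It was listed at 0 in both P7.5 libraries and at 95 and 288 FPKM in the adult, and at 0 in all 4 Cre-negative libraries. The change was 7.38 on the log2(FPKM + 1) scale (SE 1.19, limma adjusted p = 0.0102). GENCODE classes the gene as antisense, and it overlaps Ppfia3 and Lin7b on the other strand, both genes of synaptic scaffold proteins. Ppfia3 was listed at 0 in the 4 Cre-positive libraries, and Lin7b at 31.7 FPKM in adult replicate 1 and 0 in the other 3. Serp2 (ENSMUSG00000052584, chr14:76532814-76556889, minus strand) encodes a small protein of the endoplasmic reticulum membrane. It was listed at 0 in both P7.5 libraries and at 17.8 and 116 FPKM in the adult, with 0 in all 4 Cre-negative libraries, a change of 5.55 (SE 0.997, limma adjusted p = 0.0192).

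Fam189a2 (ENSMUSG00000071604, chr19:23972750-24031019, minus strand) was at 0.0369 and 0 FPKM at P7.5 and at 11.8 and 89.4 FPKM in the adult. Its change was 5.06 (SE 0.990, limma adjusted p = 0.0259). Clk4 (ENSMUSG00000020385, chr11:51261730-51281766, plus strand) encodes a kinase that phosphorylates splicing factors of the SR family. It was at 0.152 and 0.0539 FPKM at P7.5 and at 134 and 10.2 FPKM in the adult, a change of 5.14 (SE 1.07, limma adjusted p = 0.0402). In both genes the stages were far apart, but the adult libraries also lay far apart, with replicate 2 the higher for Fam189a2 and replicate 1 for Clk4.

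Cdr1 (ENSMUSG00000090546, chrX:61184005-61185558, minus strand) had the closest agreement between libraries. It was at 0.123 and 0.0431 FPKM at P7.5 and at 23.8 and 26.5 FPKM in the adult, with 0.840 FPKM in 1 adult Cre-negative library and 0 in the other 3 Cre-negative ones. Its change was 4.59 (SE 0.893, limma adjusted p = 0.0259). The locus is known for the transcript of its other strand, a circular RNA abundant in brain that binds the microRNA miR-7. The strand of the reads is not given in the sources used here, so the 2 transcripts cannot be told apart in these values. The sequences printed are mmu-miR-7a-5p from RefSeq (GRCm38.p6), with its seed (bases 2 to 8) in capitals, and 3 stretches of the strand opposite Cdr1 (mm10, GENCODE M21, plus strand of chromosome X), with the letters that pair with the seed in capitals. They are the first, the middle and the last such stretch of the locus, at chrX:61184013-61184034, chrX:61184788-61184809 and chrX:61185526-61185547.
mmu-miR-7a-5p: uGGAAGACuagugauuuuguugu
first site: ttccccaaaatccatGTCTTCC
middle site: ttcccagaagtccaaGTCTTCC
last site: ttcccagaaacccatGTCTTCC

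The 7 letters GTCTTCC occurred 79 times in the complement of the 1554-base Cdr1 transcript and 0 times in the transcript as annotated. Among 141767 GENCODE transcripts, 19.0% held the motif in their complement and 13.8% as annotated. The highest number in the complement of a transcript of another gene was 15, in Ttn, and the highest number as annotated was 125, in C230004F18Rik, the noncoding RNA that runs across the Cdr1 locus on the plus strand. C230004F18Rik itself was listed at 0 FPKM in all 8 libraries. These matches describe the locus and are no measurement of binding.

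**Figure D1:**
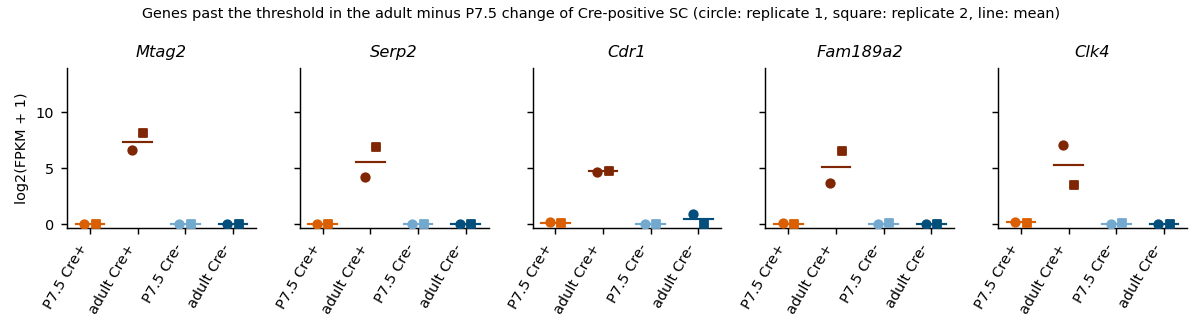
Level of the 5 genes past the limma threshold, as log2(FPKM + 1), in the 2 libraries of each of 4 groups (P7.5 and adult, Cre-positive and Cre-negative SC), with a line at the mean. In every panel the adult Cre-positive points stand above the other 6 libraries, which lie at or near 0.

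The Cre contrast within the adult called 5 genes, 0.320% of 1564, and these were the same 5. It shares the adult Cre-positive libraries with the stage change, so it is no separate evidence. At P7.5 the Cre contrast called 0 genes in limma, with 12 higher (0.767%) and 8 lower (0.512%) at an unadjusted p under 0.05. In the adult these shares were 5.56% higher and 2.49% lower. Genes entered by their Cre-positive values alone, and such a filter favours genes that are higher with Cre. In the separate adult preparation without run-off, with 3262914 reads, Serp2 had 256 reads and Mtag2 3 reads, and Cdr1, Fam189a2 and Clk4 had 0. So 3 of the 5 genes were not detected in that library, where 77.0% of the 1564 genes had at least 3 reads. The calls were few and moved with the libraries: without P7.5 Cre-positive replicate 2, 0 genes rose, and without adult Cre-positive replicate 1, 11 did. Across 20 other settings Mtag2 and Serp2 each passed in 15, Cdr1 in 14, Fam189a2 in 9 and Clk4 in 3. The groups in which these genes were at or near 0 also enter the estimate of the spread. In the fit to the 4 Cre-positive libraries alone, the limma adjusted p was 0.556 for Mtag2. It was 0.951 for Serp2, Cdr1, Fam189a2 and Clk4.

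Among the 190 genes above both P7.5 libraries (12.1% of 1564), 120 had at least 10 FPKM in both adult libraries. Of the 190, 61 entered the comparison only through the adult libraries, and 19 were listed at 0 in both P7.5 libraries. The largest increases after Mtag2 were in genes of several kinds. Atf4, a transcription factor of the stress response whose own translation is regulated, was at 0 and 0.22 FPKM at P7.5 and at 152 and 199 FPKM in the adult. Its Cre-negative values overlapped between stages, at 0 and 30.4 FPKM and then 11.4 and 0 FPKM. Atf4 did not pass (limma adjusted p = 0.275), and it had 0 reads in the preparation without run-off.

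Spop, the substrate adaptor of a cullin ubiquitin ligase, went from 0 in both P7.5 libraries to 199 and 79.2 FPKM. In Cre-negative SC it went from 1.16 and 0.104 FPKM to 113 and 296 FPKM, a change of 6.89 against 6.98 in Cre-positive SC. Eif5a, a translation elongation factor, was at 1.16 and 0.0901 FPKM and then at 63.1 and 304 FPKM, while its Cre-negative values overlapped. Arl6ip1, which shapes the endoplasmic reticulum, was at 0 and 0.471 FPKM and then at 96.1 and 124 FPKM, and its Cre-negative values overlapped too. Neither Spop, Eif5a nor Arl6ip1 passed the limma test (adjusted p = 0.107, 0.646 and 0.466). Cxx1c, from 0 in both to 35.1 and 153 FPKM, was at 9.66 FPKM in 1 P7.5 Cre-negative library and 0 in the other 3.

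Among the 10 largest increases were also genes of other cell types. Mbp, the major myelin protein, was at 0.0964 and 0 FPKM at P7.5 and at 81.7 and 110 FPKM in the adult. In Cre-negative SC it was at 0 and 0.0522 FPKM and then at 0 and 1019 FPKM. The beta-globin gene Hbb-bs was at 0 and 0.0142 FPKM and then at 146 and 39.6 FPKM, with all 4 Cre-negative libraries below 0.1 FPKM. These low values concern this symbol alone, since the blood genes as a set reached 1318 FPKM in adult Cre-negative replicate 2. How fragments were split between similar globin genes is uncertain. Summed over the 20 myelin and oligodendrocyte markers, FPKM was 29.3 and 86.1 at P7.5 and 1020 and 1278 in the adult. The Cre-negative sums were 51.2 and 66.3 and then 641 and 6375. Of these markers 13, among them Mag, Mog and Mobp, were listed at 0 in all 4 Cre-positive libraries, and most of the adult sum came from Cnp, at 26.5 and 63.8 and then 653 and 878 FPKM. The 7 blood genes summed to 0 and 6.69 FPKM and then to 237 and 159 FPKM, and in Cre-negative SC to 2.2 and 14.3 and then 47.3 and 1318 FPKM. Thus the sums of both lists were higher in every adult library than in any P7.5 library, with and without Cre.

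Photoreceptors and lens are not tissues of the SC, yet their genes were listed at low levels. The 14 photoreceptor markers summed to 1.96 and 5.02 FPKM at P7.5 and to 20.6 and 9.88 FPKM in the adult, and in Cre-negative SC to 1.03 and 0.247 and then 191 and 5.25 FPKM. Rom1, Pde6g and Gnat1, 3 genes of the photoreceptor outer segment, were higher in both adult than in both P7.5 libraries with and without Cre. The 15 lens genes summed to 0.181 and 0.0989 FPKM and then to 4.96 and 21.8 FPKM, and in Cre-negative SC to 11.7 and 0.986 and then 505 and 2.19 FPKM, where the stages overlapped. The part of these markers in the changes of other genes was not tested. The astrocyte sums overlapped, at 515 and 906 FPKM and then 1215 and 619 FPKM, as did those of endothelium and of microglia. The sums of resident collicular neurons were 9.74 and 54.0 FPKM and then 423 and 268 FPKM, against 48.2 and 92.2 and then 154 and 0.108 FPKM without Cre. The sums of dividing and immature cells were 297 and 356 FPKM and then 163 and 104 FPKM, and overlapped without Cre. Most of the sum with Cre came from Sox11, at 276 and 327 FPKM and then 138 and 103 FPKM, which is also in the growth cone list. Ccnd1 and Ccnd2 overlapped, and 6 of the 16 markers were listed at 0 in all 4 Cre-positive libraries.

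**Figure D2:**
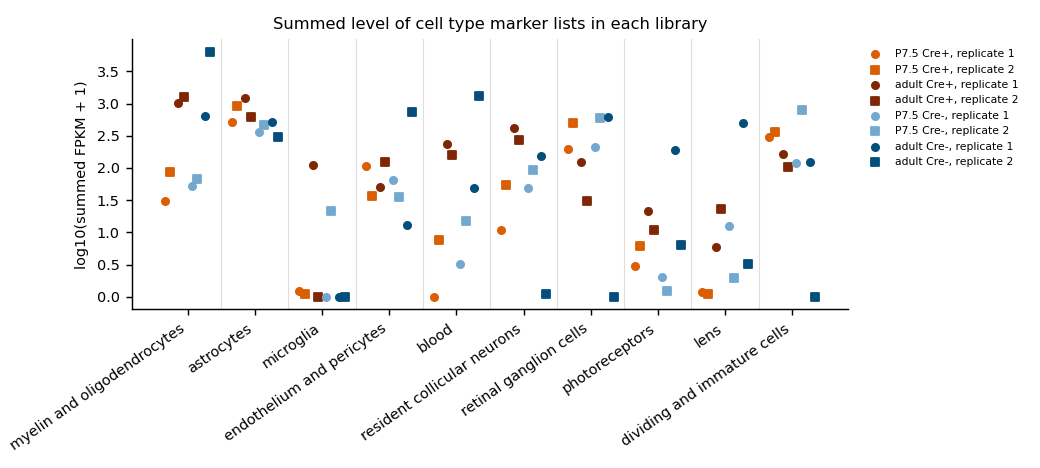
Summed FPKM of 10 lists of cell type markers in the 8 SC libraries, as log10(sum + 1), with circles for replicate 1 and squares for replicate 2. Myelin, blood and photoreceptor sums are higher in all 4 adult libraries than in all 4 P7.5 libraries.

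Among the 340 genes below both P7.5 libraries (21.7% of 1564), 147 had at least 10 FPKM in both P7.5 libraries. Of the 340, 112 entered only through P7.5, and 51 were listed at 0 in both adult libraries. Because the adult libraries were shallower, a gene can be listed at 0 there for want of reads. Of the 336 with a known length, 285 had P7.5 values above what 3 fragments would give in either adult library. The largest decrease was in Rplp1, a protein of the ribosomal stalk, at 42.5 and 98.3 FPKM at P7.5 and 0 in both adult libraries. In Cre-negative SC it was at 25.9 and 1.37 FPKM and then at 91.6 and 0 FPKM, and the separate adult preparation had 100 reads of it. Its change of -6.04 had an SE of 2.05 and did not pass (limma adjusted p = 0.511).

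Cbr3, a carbonyl reductase, had the smallest adjusted p of the decreases named here (0.124, limma). It was at 19.2 and 33.2 FPKM at P7.5 and 0 in both adult libraries, and in Cre-negative SC at 14.7 and 0.192 FPKM and then 0 in both. Eif4g1, the scaffold of the cap-binding translation initiation complex, was at 92.7 and 37.1 FPKM and then at 2.42 and 0.695 FPKM, and its 2 stages were apart in Cre-negative SC as well. Gadd45b, a stress response gene, was at 21.4 and 24.4 FPKM and then 0 in both, and overlapped without Cre. The small nucleolar RNA Snora74a was at 28.3 and 54.2 FPKM and then 0 in both, and in Cre-negative SC at 80.2 and 39.6 FPKM and then 0 in both. Of the other 5 of the 10 largest decreases, Fabp5, Smarca2, Lrrc42 and Rrp1 were lower in both adult Cre-negative libraries too, and Ufc1 overlapped there. None of the 10 passed (limma adjusted p from 0.124 to 0.839).

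The most abundant mRNAs partly changed places. At both stages 6 of the 1564 genes were among the 10 with the highest mean FPKM, namely Impact, Otub1, Sfxn5, Ptges3, Inpp4a and Gnl3l. These ranks leave out Actb and Gnb1, of which Gnb1 was at 26687 and 24503 FPKM at P7.5 and at 14989 and 43481 FPKM in the adult. Tubb5, a beta-tubulin, ranked first of the 1564 genes at P7.5 with 7459 and 4825 FPKM and was at 1335 and 2127 FPKM in the adult. In Cre-negative SC its values overlapped, at 2227 and 4889 FPKM and then 2556 and 2149 FPKM. The change of -1.83 (SE 0.674) did not pass in limma (adjusted p = 0.537). Over the whole time course, Cre-positive Tubb5 was at 7306 and 8163 FPKM at E17.5 and at 18521 and 24063 FPKM at P0.5, so the adult values were the lowest of the 4 stages. Ncan, a chondroitin sulfate proteoglycan of the extracellular matrix, was at 4599 and 3345 FPKM and then at 629 and 276 FPKM, a drop shared by Cre-negative SC, at 1884 and 3719 FPKM and then 290 and 121 FPKM. Micu3, Tspyl1, Scn2b and Zscan26 were among the 10 highest in the adult but not at P7.5, and all 4 were higher in both adult libraries. They were picked by their rank in the adult, which favours an increase. Tspyl1, Scn2b and Zscan26 were higher in both adult Cre-negative libraries as well, and Micu3 overlapped there. For Tspyl1 and Zscan26 the change was larger without Cre than with it, and for Micu3 and Scn2b it was smaller.

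Set against Cre-negative SC, the changes were partly shared. Of the 190 higher genes, 49 (25.8%) were also higher in both adult Cre-negative libraries, where 8.31% of the 1564 genes were, and 28 (14.7%) were lower in both, where 27.2% of the 1564 were. Of the 340 lower genes, 123 (36.2%) were also lower in both adult Cre-negative libraries and 12 (3.53%) were higher in both. Across the 1564 genes the changes of the 2 groups correlated at 0.261 (Pearson) and 0.241 (Spearman). These genes are not independent replicates, and stage and sequencing depth are common to both groups. The median change of the 1564 genes was -0.47 in Cre-positive and -0.63 in Cre-negative SC. In limma, 0 genes passed for the change in Cre-negative SC (38 higher, 2.43%, and 100 lower, 6.39%, at an unadjusted p under 0.05). None passed for the difference of the changes either (45 higher, 2.88%, and 17 lower, 1.09%, unadjusted; smallest adjusted p 0.525).

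**Figure D3:**
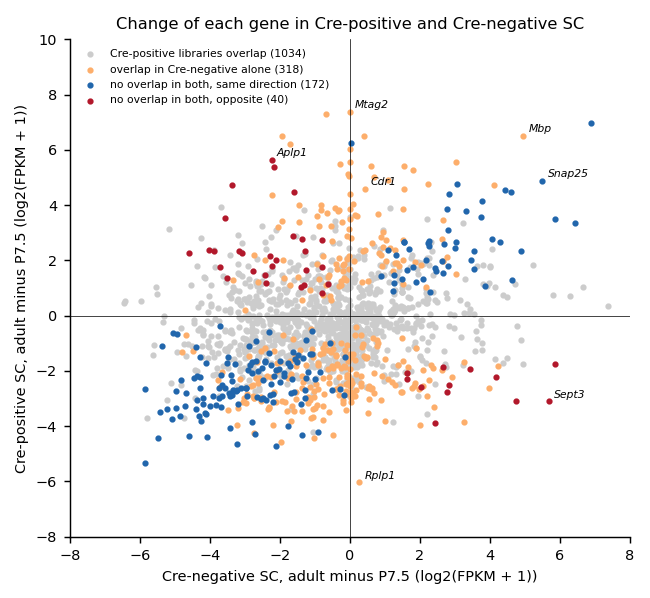
Adult minus P7.5 change of log2(FPKM + 1) for each of the 1564 genes in Cre-negative SC (x axis) and in Cre-positive SC (y axis), coloured by whether the libraries of the 2 stages overlapped. Mtag2 and Cdr1 lie near 0 on the x axis, Snap25 and Mbp to the upper right, and 40 genes moved in opposite directions.

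The shared increases included genes of the synapse and of calcium signalling. Snap25, a SNARE protein of vesicle fusion, was at 28.6 and 152 FPKM at P7.5 and at 2682 and 1462 FPKM in the adult. In Cre-negative SC it was at 91.1 and 85.3 FPKM and then at 2187 and 7449 FPKM. The changes were 4.88 and 5.50, and the difference of -0.62 did not pass (limma, unadjusted p = 0.782). Snap25 did not pass in the fit to 16 libraries (limma adjusted p = 0.444), but it was the 1 gene that passed when limma was fitted to the 4 Cre-positive libraries alone (adjusted p = 0.00955). Scn2b, a sodium channel subunit, was at 211 and 537 FPKM and then at 1365 and 3601 FPKM, against 155 and 658 FPKM and then 771 and 3060 FPKM without Cre.

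Genes of calcium signalling moved alike in both groups. Camk2n1, an inhibitor of CaM kinase II, was at 35.9 and 28.9 FPKM and then at 120 and 423 FPKM. Ppp3ca, the catalytic subunit of calcineurin, was at 52.9 and 26.8 FPKM and then at 123 and 475 FPKM. Camk2b, a CaM kinase II subunit, was at 3.34 and 0.362 FPKM and then at 10 and 4.79 FPKM. All 3 were higher in both adult Cre-negative libraries as well, and none passed (limma adjusted p from 0.839 to 0.888).

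In 40 genes the 2 groups moved in opposite directions without overlap, 28 of them (1.79% of 1564) higher with Cre and lower without, and 12 (0.767%) the reverse. They were picked out after their values were seen. Aplp1, of the family of the Alzheimer's amyloid precursor protein, was at 0.237 and 0.0415 FPKM at P7.5 and at 64.8 and 47.9 FPKM in the adult. Without Cre it was at 7.56 and 5.74 FPKM and then at 1.62 and 0 FPKM. Earlier in the time course, Cre-positive Aplp1 was at 180 and 7.64 FPKM at E17.5 and at 78.8 and 55.5 FPKM at P0.5, so its low point was P7.5. Gfra2, the receptor subunit for the survival factor neurturin, was at 0.827 and 0.306 FPKM and then at 79.0 and 51.3 FPKM, and without Cre at 1.26 and 17.9 FPKM and then at 1.09 and 0 FPKM.

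The same pattern held for Usp48, a deubiquitinase, at 1.67 and 14.7 FPKM and then 33.8 and 159 FPKM, against 16.3 and 19.9 FPKM and then 1.60 and 0 FPKM without Cre. Rock1, a kinase that acts on the actin cytoskeleton, was at 14.8 and 45.4 FPKM and then at 57.3 and 141 FPKM, against 14.3 and 28.4 FPKM and then 1.48 and 0.0737 FPKM. Of the 28 genes, 17 were listed at 0 in adult Cre-negative replicate 2 and 5 in adult Cre-negative replicate 1. In that replicate 2 library 876 of the 1564 genes were listed at 0, more than in any of the other 7.

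Of the 12 genes that were lower with Cre and higher without, Sept3, a neuronal septin, had the largest difference. It was at 7.64 and 45.0 FPKM at P7.5 and at 3.05 and 0.319 FPKM in the adult, against 10.9 and 1.86 FPKM and then 111 and 810 FPKM without Cre. Ctnnd2, a catenin of dendrites and synapses, was at 10.2 and 18.0 FPKM and then at 1.31 and 0.252 FPKM, against 8.62 and 2.99 FPKM and then 80.7 and 336 FPKM. Rab3b, a GTPase of synaptic vesicles, was at 48.5 and 200 FPKM and then at 19.8 and 1.15 FPKM, against 43.2 and 108 FPKM and then 164 and 863 FPKM. For none of the 40 did the difference of the changes pass (limma adjusted p from 0.689 to 0.997). In the preparation without run-off, 23 of the 28 and 10 of the 12 had at least 3 reads, as did 77.0% of all 1564 genes.

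**Figure D4:**
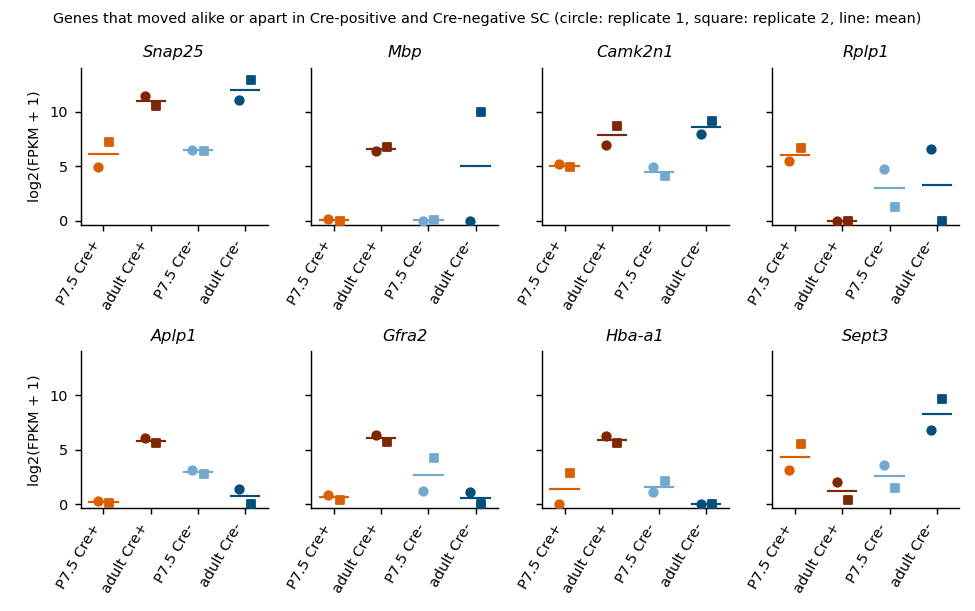
Levels of 8 genes, as log2(FPKM + 1), in the 2 libraries of each group, with a line at the mean. In the upper row Snap25 and Camk2n1 are higher in both adult groups, and in the lower row Aplp1, Gfra2 and Hba-a1 are higher in the adult with Cre and lower without, Sept3 the reverse.

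The gene lists were read by the counts of members whose stages did not overlap, beside the 12.1% higher and 21.7% lower of all 1564 genes. None of their members passed in limma in either direction. Of the 44 genes of synaptic vesicles and release, 10 entered the comparison and 18 were listed at 0 in all 4 libraries. Of these, 2 were higher, Snap25 among them, none was lower, and the median change of the 10 was 0.37 with Cre and 0.79 without. Vamp2 had 0.0439 FPKM in 1 P7.5 library and 0 in the other 3. Complexin 2 (Cplx2) and synaptotagmin 4 (Syt4) overlapped, at 387 and 23.9 FPKM and then 226 and 330 FPKM, and at 1.44 and 708 FPKM and then 79.1 and 10.3 FPKM.

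Of the 18 genes of calmodulin and the CaM kinases, 6 entered, the 3 described above were higher and none was lower, with a median of 1.31 with Cre and 1.25 without. Of the 22 glutamate receptor genes 7 entered, and 2 were lower, the NMDA receptor subunit Grin2b, at 6.41 and 56.8 FPKM and then 6.36 and 0.0990 FPKM, and the kainate receptor subunit Grik1, at 2.89 and 4.77 FPKM and then 1.12 and 0 FPKM. Both were lower without Cre as well, and the median was -0.79 with Cre and -0.80 without. Of the 36 voltage-gated channel genes 5 entered, Scn2b higher and Scn3a lower, with a median of -0.41 with Cre and 0.04 without. Of the 6 sodium-potassium ATPase subunits only Atp1b1 entered, and it overlapped, at 8.55 and 55.0 FPKM and then 242 and 0 FPKM.

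Among the cytoskeletal genes, 6 of 15 neurofilament and microtubule-associated protein genes entered. Map2, best known from dendrites, was higher, at 2.33 and 1.93 FPKM and then 103 and 12.2 FPKM, while Map1b, Map4 and Map7d2 were lower, and all 4 moved in the same direction without Cre. Of the 13 tubulins 6 entered, with Tuba1b higher and Tubb5 lower, both overlapping without Cre. Of 25 growth cone genes 12 entered, 2 were lower and none was higher. Basp1, a membrane protein of growing axons, was at 3.48 and 2.09 FPKM and then 0 in both, and Sox11, a transcription factor of immature neurons, at 276 and 327 FPKM and then at 138 and 103 FPKM. Both overlapped without Cre. Gap43, the classic growth cone protein, was listed at 0 in all 4 libraries, although the preparation without run-off had 976 reads of it, so a 0 in these files says only that the gene is listed at 0. Of 60 guidance receptors and ligands 4 entered and 37 were listed at 0 throughout; Efna5, an ephrin that guides retinal axons in the SC, was lower, at 109 and 162 FPKM and then 38.6 and 13.1 FPKM, and overlapped without Cre.

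Of the 18 genes of axon destruction, Sarm1, whose product drives axon degeneration after injury, was the 1 that entered. It was at 2.04 and 1.67 FPKM at P7.5 and 0 in both adult libraries, where 3 fragments would give an estimated 0.913 FPKM in the shallower one, and it had 0 reads in the preparation without run-off. Without Cre it overlapped, with a change of 0.02 against -1.51 with Cre. Casp9 was at 10.9 and 0.0253 FPKM and then 0 in both. Of the 20 axon survival genes 4 entered, and Bcl2, which opposes cell death, was lower, at 1.91 and 7.53 FPKM and then 1.61 and 0.413 FPKM, and overlapped without Cre. Nmnat2, the survival factor that counters Sarm1, overlapped, at 10.3 and 37.0 FPKM and then 66.8 and 0 FPKM. Ntrk2, the receptor of the growth factor BDNF, did not enter, at 0.149 and 0.0664 FPKM and then 0.552 and 41.1 FPKM.

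Of 16 genes linked to neurodegeneration, a list that includes Mapt, App, Prnp and Htt, which the study discusses from these samples, 7 entered, 2 were higher and 1 was lower. The median was 1.53 with Cre and -1.58 without. In adult Cre-negative replicate 2, where 876 of the 1564 genes were listed at 0, Psen2, Aplp1, Sod1 and Pink1 were at 0. Aplp2 was at 0.134 FPKM there, and Mapt and Uchl1 at 253 and 588 FPKM. The part of that library in the median without Cre was not tested. The higher ones were Aplp1 and Pink1, a kinase of mitochondrial quality control, which went from 0 in both P7.5 libraries to 42.9 and 49.1 FPKM. Pink1 without Cre was at 0.327 and 0 FPKM and then at 86.9 and 0 FPKM. Sod1, which removes superoxide, was lower, at 374 and 218 FPKM and then 56.1 and 190 FPKM, and overlapped without Cre. Mapt, the tau gene, overlapped, at 0.160 and 8.58 FPKM and then 1.27 and 62.2 FPKM, and App and Prnp did not enter, with values above 1 FPKM in 1 library each. Htt was listed at 0 in all 4 libraries.

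Of the 85 cytosolic ribosomal proteins 24 entered, 4 were higher and 3 were lower, and 39 were listed at 0 in all 4 libraries. Rplp2, the partner of Rplp1 in the ribosomal stalk, was at 2.16 and 1.19 FPKM and then at 62.6 and 19.3 FPKM, opposite in direction to Rplp1, and overlapped without Cre (a change of 3.77 with Cre and -0.33 without). The median of the 24 was 0.66 with Cre and -0.02 without, and it was -0.23 without adult Cre-positive replicate 1. Of the 64 translation factors 18 entered, Eif5a and Eif4a1 were higher, and Eif4g1, Eef1b2, Eif3d and Eif3g were lower, with a median of -0.88 with Cre and -0.06 without. Of the 78 genes of oxidative phosphorylation 16 entered, Cox7a2 and Atp5g1 were lower and none was higher, with a median of -0.90 with Cre and -0.51 without. Both overlapped without Cre, where the change of Atp5g1 was 4.22 against -1.82 with Cre. Gpi1, a glycolytic enzyme at 12 and 14.2 FPKM and then 0.935 and 0 FPKM, was lower among 7 of 33 genes of glycolysis and the citric acid cycle, and overlapped without Cre. Psma3 was lower among 2 of 48 proteasome subunits, and neither of the 2 histones of 81 that entered was higher or lower. List medians moved with single libraries: without adult Cre-positive replicate 1 the synaptic median was -0.07, without adult Cre-positive replicate 2 that of oxidative phosphorylation was 0.77 and of translation factors 0.07, and without P7.5 Cre-positive replicate 2 that of growth cone genes was 0.39. The median of all 1564 genes was -1.33 without adult Cre-positive replicate 1.

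**Figure D5:**
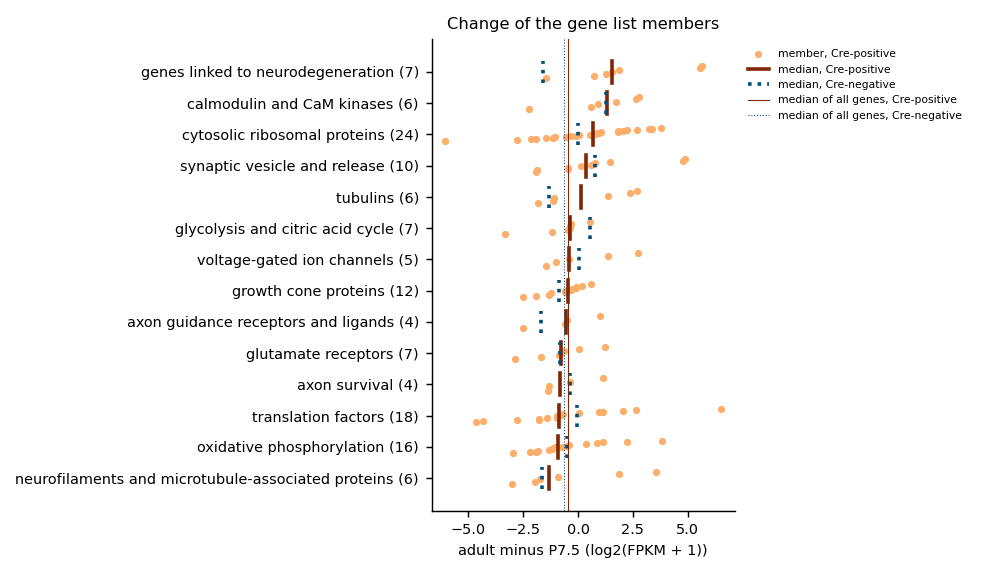
Adult minus P7.5 change of log2(FPKM + 1) for the members of each list with at least 4 genes in the comparison (number in brackets), with the list median with Cre (solid bar) and without (dotted bar) and the medians of all genes as thin lines. Each list has members above and below 0, but the spread differs between lists. The growth cone genes and those of glycolysis and the citric acid cycle reach only 0.57 above 0.

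In the retina libraries of the same stages, 126 of the 1564 genes (8.06%) were higher in both adult libraries and 115 (7.35%) were lower. Of the 190 genes higher in adult Cre-positive SC, 18 (9.47%) were higher there and 16 (8.42%) were lower. Of the 340 lower genes, 9 (2.65%) were lower there and 23 (6.76%) were higher. The median change in retina was 0.02, and 0 genes passed in limma (2 higher, 0.128%, and 5 lower, 0.320%, unadjusted). Of the 5 genes past the threshold in SC, the highest value in any of the 4 retina libraries was 4.47 FPKM, of Fam189a2. The preparation without run-off had at least 1 read for 84.7% of the 190 higher genes, 83.2% of the 340 lower ones and 81.9% of all 1564. These 3 shares lie close together.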

How the data were processed

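The authors aligned reads to mm10 with TopHat2 2.0.12 and deposited FPKM values per gene symbol from Cufflinks 2.2.1, and deposited raw read counts from HTSeq 0.6.1p1 for the 4 run-off libraries. Whether counting used strand is not given in the sources used here. FPKM values were used as deposited; run-off counts were read as values only, since each kind has 1 library. The members and the gene lists were chosen with earlier results of these data known. The genes of the comparison were tested on log2(FPKM + 1) with limma 3.58.1 (trend and robust; R 4.3.3) over the 16 SC libraries in 8 groups, and over the 8 retina libraries for retina. Changes are on that scale, which understates those of low genes, and a change against 0 depends on the pseudocount. P-values were two-sided, with Benjamini-Hochberg adjustment within a comparison and a threshold of 0.05. An exact test of 2 against 2 libraries cannot go below a p of 0.333. Genes were called higher or lower without a test when both libraries of a stage lay beyond both of the other. Depth was estimated from the lowest step of FPKM times length among single-transcript genes, and coordinates and lengths came from GENCODE M21 (98.4% of symbols with a length). The genes named were those past the threshold, the 10 largest increases and decreases with at least 10 FPKM in both libraries of the higher stage, up to 4 members a list and genes the study discusses; others are said to be chosen after their values were seen. The fit was tested on simulated data with normally distributed values, which lack the many values of 0 and the depth gap of these libraries. Alternatives covered pseudocounts, filters, scaling, the samples fitted, the moderation, a replicate term and leaving libraries out. Some items withheld for evaluation are not reported here.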

Additional observations from a re-analysis of the deposited data

Results flagged for a closer look

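Genes whose 2 adult libraries moved one way with Cre and the other way without it were picked out. Of them, 28 were higher with Cre and lower without, and 12 lower with Cre and higher without. The 28 were 14.7% of the 190 genes higher with Cre, below the 27.2% of all 1564 that were lower without. The 12 were 3.53% of the 340 genes lower with Cre, below the 8.31% of all 1564 that were higher without. Among the genes named by rule, Aplp1 and the alpha-globin gene Hba-a1 moved in opposite directions. Their differences between the 2 changes were 7.87 and 6.08 on the log2(FPKM + 1) scale. Hba-a1 was at 0 and 6.16 FPKM at P7.5 and at 73.3 and 47.6 FPKM in the adult with Cre, and at 1.11 and 3.29 FPKM and then at 0.000543 and 0 FPKM without. Neither difference passed in limma over all genes (adjusted p = 0.721 and 0.997). Hba-a1 shares reads with the near-identical Hba-a2, so how its fragments were split is uncertain.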

How the results depend on the processing

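The limma counts were unstable with 2 libraries a group. Of the genes higher in adult Cre-positive SC, 5 as reported, the number was 0 with a pseudocount of 0.1, 3 with 5, 3 with no filter on low values, 2 with a filter of 5 FPKM, 0 in a fit to the 8 SC libraries of both stages, 1 in a fit to the 4 Cre-positive libraries (Snap25), 0 without the trend and robust options, and 3 without both P7.5 replicate 1 libraries. Leaving out 1 library at a time gave 0 to 11. Of the genes lower there, 0 as reported, quantile normalization gave 1 (Cbr3), leaving out both P7.5 replicate 1 libraries 7, and leaving out 1 library 0 to 4. In Cre-negative SC, 0 as reported, no filter and a filter over the 16 SC libraries each gave 3 higher genes, and leaving out 1 library gave 0 to 16 higher and 0 to 42 lower, the highest of both without adult Cre-negative replicate 1. The difference of the changes gave 0 to 4 higher genes when 1 library was left out. For Cre at P7.5 this gave 0 to 11 higher genes. For Cre in the adult, 5 higher and 0 lower as reported, the higher genes numbered 0 with a pseudocount of 0.1, 3 with 5, 3 with no filter, 2 with a filter of 5 FPKM, 0 in the fit to 8 libraries, 0 without the trend and robust options, and 0 to 41 with 1 library left out. The lower ones numbered 3 with no filter, 4 with the filter over 16 libraries and 0 to 18 with 1 library left out.

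The labels do not say that a replicate number marks a shared litter, and the libraries were not treated as paired. Replicate 1 minus replicate 2 correlated between the stages at -0.145 with Cre and -0.168 without, and between the groups at 0.446 for P7.5 and 0.0462 for the adult. With a replicate block shared by all groups, the stage change called 4 higher genes and Cre in the adult 3. A block within each stage left the difference of the changes at 0.

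Of the 190 genes without overlap that were higher, 112 remained with a gap of at least 1 on the log2 scale and 120 with at least 10 FPKM in both adult libraries. Of the 340 lower, the numbers were 172 and 147, and a filter of 5 FPKM left 198. Without Cre, the gap left 57 of 130 higher and 203 of 426 lower, the filter of 5 FPKM 242 lower, and 10 FPKM 180 lower. Leaving out both P7.5 replicate 1 libraries, so that 1 library stands for that stage, gave 356 and 677 with Cre and 265 and 684 without. The ribosomal median ranged from -0.23 to 0.98 and the median of all genes from -1.33 to -0.11 with 1 library left out. No called gene changed direction under the alternatives run. The shallow adult libraries limit what can be said of genes listed at 0, and the causes of these shifts were not tested.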
